A study of Mus musculus with 2 samples.

Results

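Among the differentially accessible regions (DARs) of osteoclastic induced BMDMs, those that begin 1 to 3000 bp downstream of the transcription start site (TSS) of their nearest transcript, and that the deposited annotation places in an intron, in a class named Downstream or in a class named Distal Intergenic, are called start-proximal DARs here. They were taken from the deposited table of all DARs by these 2 columns, and numbered 366 of 5650. The annotation leaves them outside its promoter class, which covers the TSS and the sequence upstream of it. BMDMs are bone marrow-derived monocytes, taken here from mice of 4 to 6 weeks (C57BL/6 in the labels, wild-type C57BL/6J in the methods), and both groups were given the cytokines that drive monocytes towards osteoclasts, M-CSF at 50 ng/ml with RANKL at 100 ng/ml. The MR + vector group received vehicle and the MR + iBRD9 group received iBRD9, an inhibitor of the bromodomain of BRD9, for 24 h. Each group was 1 ATAC-seq library made from 5000 cells, and the labels do not say how many mice gave them. A gain DAR is one that the study names as more accessible after inhibition, and a loss DAR as less accessible. The tables hold positions and annotation but no read count, signal or fold change, so the direction of a DAR and the depth behind it could not be checked, and no level per library can be given. With 1 library per group no difference had a replicate check and no test was run. Shares carry 95% Wilson intervals, which cover counting error alone, since regions of 1 pair of libraries are not replicates.

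Accessible chromatin is sequence that is not packed tightly around nucleosomes, where transcription factors and the transcription machinery can bind. The promoter lies at the TSS, and the sequence after it, above all the first intron, often holds further binding sites that act on the same gene. BRD9 is the bromodomain subunit of the non-canonical BAF complex, a remodelling machine that moves nucleosomes and is recruited in part through acetylated histones.

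The sequences of 14 start-proximal DARs are given below in full, as the plus strand of GRCm39 read 5′ to 3′, with the letters of the searched motifs in capitals, as their reverse complement where the match is on the minus strand. The first 5 belong to genes of the lists described further on, and show how short these DARs are and that they held 0 to 3 different motifs each. The next 6 are among those with the most different motifs, at least 4 of the 17 searched. The last 3 were added after their values were seen, because each is the partner of a DAR of the opposite direction at the same gene, Smyd2 or Gm24064.
Cdkn1a gain DAR, chr17:29318024-29318273, GRCm39, plus strand: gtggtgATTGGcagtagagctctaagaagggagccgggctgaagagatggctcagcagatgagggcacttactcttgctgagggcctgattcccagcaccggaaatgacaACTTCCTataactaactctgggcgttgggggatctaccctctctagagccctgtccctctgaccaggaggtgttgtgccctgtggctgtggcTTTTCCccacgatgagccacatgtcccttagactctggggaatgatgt
Rel gain DAR, chr11:23719775-23719927, GRCm39, plus strand: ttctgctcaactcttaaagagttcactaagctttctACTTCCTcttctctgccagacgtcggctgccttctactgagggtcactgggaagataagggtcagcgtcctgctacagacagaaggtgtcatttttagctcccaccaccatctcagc
Il6st gain DAR, chr13:112601031-112601180, GRCm39, plus strand: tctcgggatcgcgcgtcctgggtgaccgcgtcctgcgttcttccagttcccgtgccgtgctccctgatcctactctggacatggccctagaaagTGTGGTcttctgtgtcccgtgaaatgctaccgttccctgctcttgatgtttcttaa
Tfeb gain DAR, chr17:48070846-48071044, GRCm39, plus strand: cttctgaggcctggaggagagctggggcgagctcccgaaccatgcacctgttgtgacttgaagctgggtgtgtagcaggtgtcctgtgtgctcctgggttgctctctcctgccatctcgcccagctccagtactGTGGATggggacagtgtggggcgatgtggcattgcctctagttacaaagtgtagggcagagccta
Nfkbie loss DAR, chr17:45868951-45869100, GRCm39, plus strand: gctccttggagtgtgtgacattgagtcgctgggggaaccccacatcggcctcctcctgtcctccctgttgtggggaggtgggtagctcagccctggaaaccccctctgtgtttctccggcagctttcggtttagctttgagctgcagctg
Nav1 gain DAR, chr1:135394788-135394994, GRCm39, plus strand: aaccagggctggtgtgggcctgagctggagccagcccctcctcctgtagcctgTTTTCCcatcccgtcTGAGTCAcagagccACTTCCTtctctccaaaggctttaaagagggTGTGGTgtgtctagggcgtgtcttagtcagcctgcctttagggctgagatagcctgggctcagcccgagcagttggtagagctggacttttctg
Smyd2 gain DAR, chr1:189654010-189654203, GRCm39, plus strand: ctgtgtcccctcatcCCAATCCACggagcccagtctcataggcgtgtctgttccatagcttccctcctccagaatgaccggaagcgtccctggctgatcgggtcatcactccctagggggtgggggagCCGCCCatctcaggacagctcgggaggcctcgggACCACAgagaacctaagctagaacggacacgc
Gm22542 gain DAR, chr17:88649120-88649367, GRCm39, plus strand: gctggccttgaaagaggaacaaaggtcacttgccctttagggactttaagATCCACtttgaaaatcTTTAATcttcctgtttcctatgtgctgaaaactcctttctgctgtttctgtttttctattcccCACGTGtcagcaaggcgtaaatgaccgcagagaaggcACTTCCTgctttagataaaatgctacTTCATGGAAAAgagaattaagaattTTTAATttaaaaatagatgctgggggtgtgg
Gm45498 gain DAR, chr7:11859443-11859715, GRCm39, plus strand: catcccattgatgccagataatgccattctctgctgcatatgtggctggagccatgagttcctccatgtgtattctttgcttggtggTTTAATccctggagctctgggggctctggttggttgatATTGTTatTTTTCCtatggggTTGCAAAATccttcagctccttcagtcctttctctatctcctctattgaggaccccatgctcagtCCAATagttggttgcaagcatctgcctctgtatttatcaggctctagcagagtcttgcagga
ENSMUSG00000100502 loss DAR, chr1:153908485-153908738, GRCm39, plus strand: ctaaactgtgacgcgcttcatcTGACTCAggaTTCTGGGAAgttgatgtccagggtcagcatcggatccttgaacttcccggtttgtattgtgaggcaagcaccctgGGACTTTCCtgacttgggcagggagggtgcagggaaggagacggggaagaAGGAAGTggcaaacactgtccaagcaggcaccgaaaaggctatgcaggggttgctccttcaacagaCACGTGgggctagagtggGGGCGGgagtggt
Or13a20 loss DAR, chr7:140229184-140229386, GRCm39, plus strand: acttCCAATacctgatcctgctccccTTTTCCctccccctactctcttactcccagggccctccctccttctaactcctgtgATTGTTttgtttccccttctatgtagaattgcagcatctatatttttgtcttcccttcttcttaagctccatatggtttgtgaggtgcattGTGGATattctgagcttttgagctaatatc
Smyd2 loss DAR, chr1:189653669-189653830, GRCm39, plus strand: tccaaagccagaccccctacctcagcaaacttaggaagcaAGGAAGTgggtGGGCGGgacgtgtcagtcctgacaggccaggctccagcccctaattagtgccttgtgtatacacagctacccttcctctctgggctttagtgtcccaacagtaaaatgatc
Gm24064 gain DAR, chr1:26606916-26607065, GRCm39, plus strand: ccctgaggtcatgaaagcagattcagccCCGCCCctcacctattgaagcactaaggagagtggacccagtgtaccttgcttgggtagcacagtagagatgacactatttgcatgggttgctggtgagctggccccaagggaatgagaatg
Gm24064 loss DAR, chr1:26606452-26606628, GRCm39, plus strand: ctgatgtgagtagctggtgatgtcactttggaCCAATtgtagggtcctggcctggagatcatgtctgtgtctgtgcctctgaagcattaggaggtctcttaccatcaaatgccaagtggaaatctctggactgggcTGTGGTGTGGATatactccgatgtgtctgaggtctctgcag

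Gain and loss were divided among the start-proximal DARs as among all DARs. There were 207 gain and 159 loss DARs, a gain share of 56.6% (51.4% to 61.5%), beside 55.9% of all 5650 DARs. The neighbouring kinds of DAR had similar shares. Gain DARs made up 56.1% of the 440 DARs that covered a TSS, 55.8% of the 489 promoter DARs upstream of one and 59.4% (52.8% to 65.8%) of the 217 DARs in exons and untranslated regions 1 to 3000 bp downstream. Among the 531 first-intron DARs more than 3000 bp from a TSS the share was 51.6% (47.4% to 55.8%). The interval of the start-proximal DARs overlapped that of each of these sets.

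**Figure D1:**
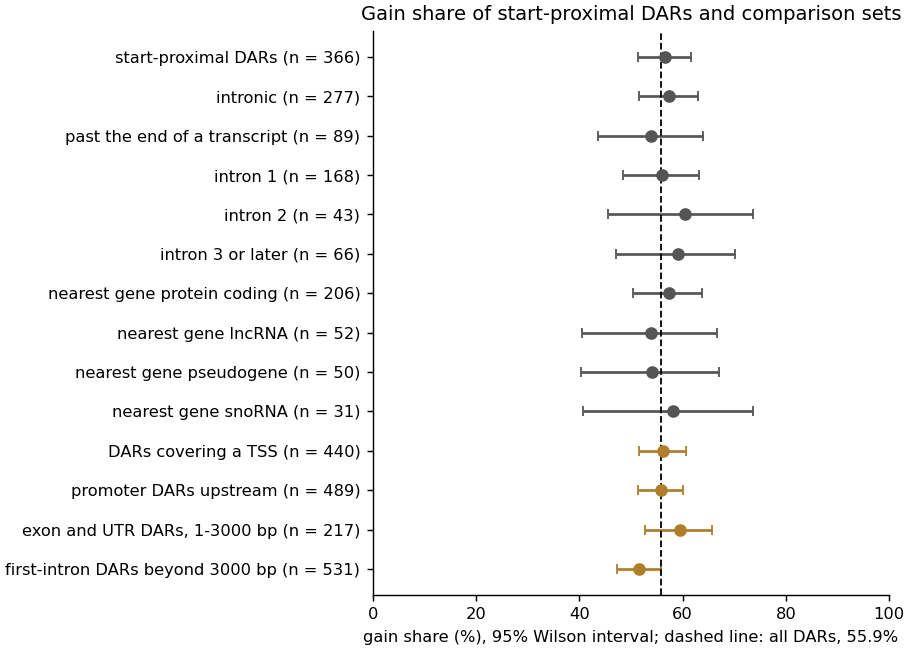
Gain share in percent with 95% Wilson intervals for the start-proximal DARs, for kinds of them (grey) and for 4 other sets of DARs (brown), with a dashed line at 55.9%, the share of all DARs. All 10 grey intervals cross the dashed line, from 53.8% for lncRNA genes to 60.5% for intron 2.

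The gain share varied with the distance to the TSS within the first 1000 bp. Distances ran from 74 to 3000 bp with a median of 1280.5 bp, 1355 bp among gain and 1238 bp among loss DARs. From 1 to 500 bp there were 58 gain and 26 loss DARs, a gain share of 69.0% (58.5% to 77.9%). From 501 to 1000 bp there were 27 gain and 41 loss DARs, a gain share of 39.7% (28.9% to 51.6%). Of 6 bins of 500 bp, these were the 2 whose interval did not hold 55.9%. Gain shares in the 4 bins from 1001 to 3000 bp were 51.9%, 59.3%, 60.7% and 55.0%. Gain DARs were therefore the larger group next to the TSS and the smaller one in the next bin, and both bins together, 85 gain of 152 DARs, came back to 55.9%. The first value also moved with the edge of the bin. With an edge at 250 bp or at 750 bp, chosen after the data were seen, the gain share was 61.5% (16 of 26) or 61.3% (68 of 111), and both intervals held 55.9%.

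**Figure D2:**
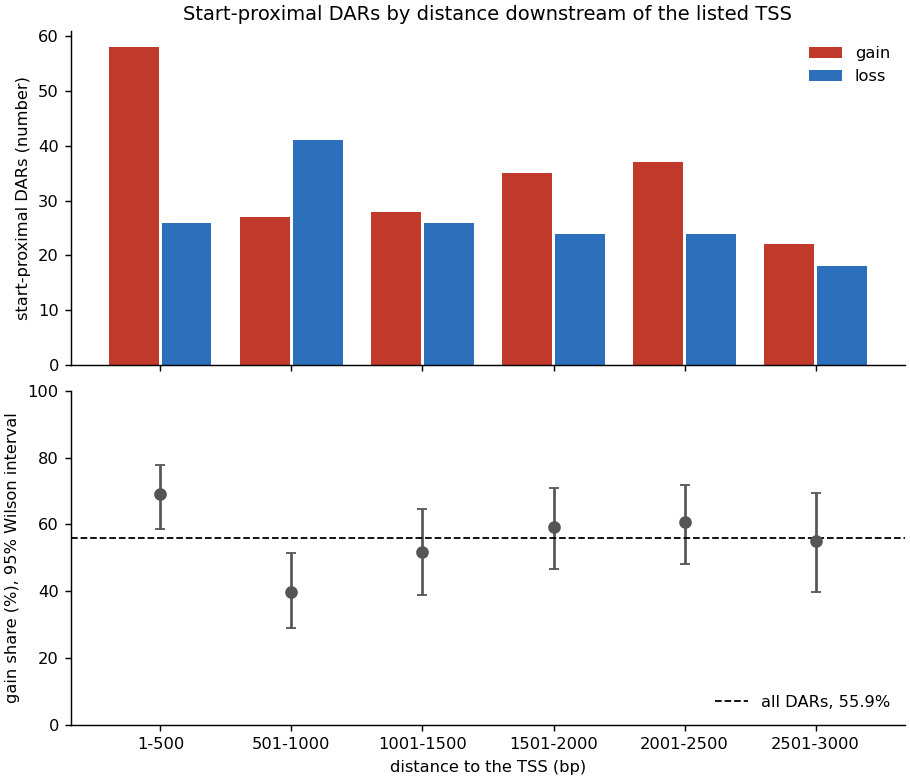
Number of gain (red) and loss (blue) start-proximal DARs in bins of 500 bp downstream of the TSS (upper panel), and gain share in percent with its 95% Wilson interval (lower panel), with a dashed line at 55.9%. The share was 69.0% from 1 to 500 bp and 39.7% from 501 to 1000 bp, and the other 4 intervals cross the line.

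In the same bin of the other classes the gain share was nearer to 55.9%. The bin was singled out after its value was seen, and these comparisons were not tested. Of DARs in exons and untranslated regions 1 to 500 bp downstream, 75 were gain and 57 loss (56.8%, 48.3% to 65.0%). This interval overlapped that of the start-proximal DARs in the bin, 58.5% to 77.9%. In the 500 bp upstream, promoter DARs comprised 97 gain and 92 loss DARs (51.3%, 44.2% to 58.4%). With exons and untranslated regions included, the 216 DARs from 1 to 500 bp downstream had a gain share of 61.6%. Of the 84 start-proximal DARs from 1 to 500 bp, 55 lay in introns of protein-coding genes, 39 gain and 16 loss (70.9%, 57.9% to 81.2%). Being part of the same DARs, they are no separate support. From 2001 to 2500 bp such intronic DARs had a gain share of 67.6% (50.8% to 80.9%), and in their other bins it was 40.9% to 53.1%. Measured from the start of the canonical transcript of the gene in GENCODE M39 instead, the intronic DARs of protein-coding genes from 1 to 500 bp were 17 gain and 9 loss (65.4%, 46.2% to 80.6%), and those from 501 to 1000 bp 12 gain and 14 loss.

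From the protein-coding genes of the first bin, 5 are given as examples, chosen after their positions were seen. Gain DARs lay 141 bp from the TSS of Xrcc5, which encodes a Ku subunit of DNA end joining, 118 bp from Trap1, a mitochondrial chaperone, and 399 bp from Pomp, a proteasome assembly factor. Loss DARs lay 391 bp from the TSS of Atp6v1d, a subunit of the vacuolar proton pump, and 484 bp from that of Wls, which carries Wnt proteins to the cell surface. The deposited annotation placed these 5 DARs in a first intron, which need not be that of the transcript with the nearest TSS. The Atp6v1d DAR also covered a TSS of Eif2s1, the gene of a translation initiation factor, and the DARs of Xrcc5 and Trap1 overlapped an exon of another transcript.

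Most start-proximal DARs (75.7%) lay inside a gene, most often in its first intron. The deposited annotation placed 277 in introns, 159 gain and 118 loss. Intron 1 held 168 of them, or 45.9% of all start-proximal DARs (40.9% to 51.0%), with 94 gain and 74 loss. Intron 2 held 43, with 26 gain and 17 loss, and later introns 66, with 39 gain and 27 loss. A DAR in intron 11 or later can be close to a TSS only if that TSS lies inside the gene, and there were 26 of these. In the 270 introns that could be placed, the median intron length was 8142 bp and the median distance from the 5′ splice site to the DAR 1121 bp. Of these DARs, 201 (74.4%) were nearer to the 5′ than to the 3′ splice site, as their choice by distance from a TSS makes likely. For 39 intronic DARs the gene around the DAR was not the gene with the nearest TSS.

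The other 89 start-proximal DARs lay past the end of a short transcript. Their nearest transcripts had a median length of 328 bp, and the DARs began 17 to 2593 bp beyond the transcript's end, with a median of 770 bp. They were named Downstream in 44 cases and Distal Intergenic in 45, and the name followed the strand. All 44 Downstream DARs had a nearest transcript on the minus strand and all 45 Distal Intergenic DARs one on the plus strand, while the intronic DARs had 144 on the minus and 133 on the plus strand. The 2 names therefore held DARs in the same kind of place, and are described as 1 set below. Gain DARs made up 48 of the 89 (53.9%, 43.6% to 63.9%), with 20 of 44 in the Downstream class and 28 of 45 in the Distal Intergenic class.

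Small RNA genes and pseudogenes were the nearest genes of most of these 89 DARs. The rule itself favours such genes, because a DAR past the end of a transcript and within 3000 bp of its start needs a short transcript. Pseudogenes were nearest to 32, with 14 gain and 18 loss, and small nucleolar RNA (snoRNA) genes to 27, with 16 gain and 11 loss. Long noncoding RNA (lncRNA) genes were nearest to 8, small nuclear RNA genes to 4 and microRNA genes to 2. Protein-coding genes were nearest to 5. Among these, a gain DAR lay 904 bp from the start of a 703 bp transcript of Selplg, which encodes the selectin ligand PSGL-1 of leukocytes. The gain DARs of Sfn and Sprr2j-ps and the loss DAR of Vmn1r44 lay at 2182, 2371 and 2194 bp.

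The DARs closest to such transcripts were spread over many small genes. In the Distal Intergenic class the closest gain DARs were those of Mir5099 at 91 bp, Gm24182 at 237 bp, Gm23278 at 285 bp, Gm47975 at 386 bp and Gm25610 at 447 bp. The closest loss DARs there were those of Gm24064 at 538 bp, Gm23072 at 683 bp, Gm24006 at 757 bp, Gm38294 at 810 bp and Gm22495 at 1080 bp. Of these 10 genes, 6 are annotated as snoRNA genes. In the Downstream class the closest gain DARs were those of Gm23011 at 264 bp, Gm23750 at 459 bp, Gm24075 at 489 bp, Gm25344 at 494 bp and Gm22267 at 677 bp. The closest loss DARs were those of Gm25276 at 145 bp, Gm26490 at 189 bp, Gm25094 at 279 bp, the immunoglobulin segment Ighd5-6 at 314 bp and Gm25860 at 322 bp. Of these 10, 9 are snoRNA genes. In both classes, choosing the smallest distances past a transcript's end favours the shortest transcripts.

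Not every listed TSS is the start of a main transcript, which bears on how near to a promoter these DARs are. Over all 366, the nearest gene was protein-coding for 206, a lncRNA gene for 52, a pseudogene for 50 and a snoRNA gene for 31. Of the 201 intronic DARs of protein-coding genes, the listed transcript was protein-coding for 119, a retained-intron transcript for 38, one without a defined coding sequence for 31 and one marked for nonsense-mediated decay for 13. Their distance to the canonical TSS was 1 to 3000 bp for 115 and more than 10000 bp for 61. Of all 366 start-proximal DARs, 147 had their nearest protein-coding TSS 1 to 3000 bp upstream (85 gain, 57.8%), and 196 had none within 3000 bp on either side (108 gain, 55.1%, 48.1% to 61.9%). An exon of some GENCODE M39 transcript overlapped 56 of the DARs, and 16 covered another annotated TSS, so the non-exonic class does not hold for every annotated transcript.

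Start-proximal DARs were as short as other DARs. Their widths ran from 150 to 569 bp with a median of 178 bp, 182 bp among gain and 175 bp among loss DARs, beside 186 bp over all DARs and 223.5 bp over those covering a TSS. The smallest width of 150 bp was that of 85 (23.2%, 19.2% to 27.8%), beside 20.4% of all DARs. At least 300 bp were spanned by 28, with 18 gain and 10 loss. The widest gain DARs were those of Gm23605 (569 bp), ENSMUSG00000103659 (488 bp), Gm6607 (434 bp), Sh3bgr (412 bp) and Gm22268 (403 bp). The widest loss DARs were those of 4930545E07Rik (465 bp), Gm23072 (380 bp), Gm37125 (373 bp), 1700007P06Rik (360 bp) and Gm2629 (354 bp). Of these 10 nearest genes, Sh3bgr alone is protein-coding.

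**Figure D3:**
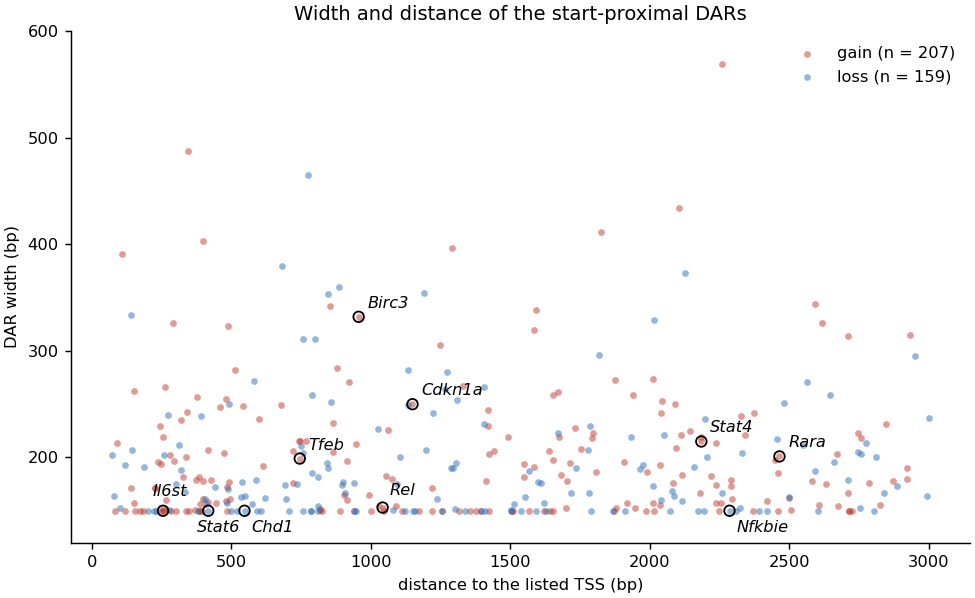
Width in bp against distance to the listed TSS in bp for 207 gain (red) and 159 loss (blue) start-proximal DARs, with the DARs of the 10 list genes circled and named. Most points lie below 300 bp, the row at 150 bp holds 85 DARs, and gain and loss are mixed over most of the plot.

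At the limits of the rule, the 3 DARs closest to a TSS were the loss DARs of the lncRNA gene Gm31831 (74 bp) and of Gm14399 (81 bp) and the gain DAR of Camk2d (85 bp), which encodes a calcium-dependent kinase. The last lay in intron 12 beside a retained-intron transcript, 202007 bp from the canonical TSS. The 3 just inside 3000 bp were the loss DARs of Or6o1-ps1 (3000 bp), Mgat4c (2992 bp) and Klhl18 (2950 bp). Just beyond it, and left out, were the loss DARs of Gm49944 (3006 bp) and Psat1 (3008 bp) and the gain DAR of Nid2 (3058 bp).

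Of 489 genes in 11 lists of osteoclast, signalling, chromatin and metabolic genes and of markers of other cell types, 10 were nearest to a start-proximal DAR, 7 gain and 3 loss. As a share that was 2.04% of the list genes, where 204 of all 21751 protein-coding genes (0.938%) had one. List genes were also nearest to a DAR of any kind more often, 107 of 489 (21.9%) against 2395 of 21751. Among genes with any DAR, a start-proximal one was present for 9.35% of the list genes and 8.52% of all protein-coding genes. The lists of phospholipid and glycerolipid synthesis, of adhesion, actin and cell fusion, of catecholamine and dopamine metabolism and of markers of other cell types had none.

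In the list of osteoclast differentiation and function, 1 gene of 42 had a start-proximal DAR. Tfeb, which encodes a driver of lysosome biogenesis, had a gain DAR of 199 bp in intron 1 at chr17:48070846-48071044. It was 746 bp from an alternative TSS and 22891 bp from the canonical one.

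Of 41 genes of RANK, NF-kB and MAPK signalling, 2 had one, in opposite directions. Rel, the gene of the NF-kB subunit c-Rel, had a gain DAR of 153 bp in intron 1, 1043 bp from the listed TSS, at chr11:23719775-23719927, with an ETS and PU.1 core as its 1 motif. GENCODE M39 places the TSS of that transcript further upstream, 1337 bp away. Nfkbie, which encodes the inhibitor I-kappa-B epsilon that holds NF-kB in the cytoplasm, had a loss DAR of 150 bp in intron 1 at chr17:45868951-45869100. It lay 2286 bp from the TSS of a retained-intron transcript and 2345 bp from the canonical one, and none of the 17 motifs was in its sequence printed above.

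Of 49 genes of the interferon beta and STAT response, 2 had one, again in opposite directions. Stat6, the transducer of interleukin 4 signals, had a loss DAR of 150 bp at chr10:127479289-127479438, 418 bp from the listed TSS and in intron 1 by the annotation. It overlaps an exon of another Stat6 transcript. The gain DAR listed for Stat4, at chr1:52146793-52147007, lay 2185 bp from the start of a retained-intron transcript and 99391 bp from the canonical TSS, in an intron of Gm28177. An exon of an annotated protein-coding transcript overlaps it.

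Apoptotic signalling had 2 of 41 genes, both with gain DARs. Cdkn1a, which encodes the cell cycle inhibitor p21, had one of 250 bp at chr17:29318024-29318273, in intron 2 by the annotation and 1150 bp from the listed TSS. The canonical TSS of Cdkn1a was 5286 bp away, and the printed sequence held an ETS and PU.1 core, an NFAT core and an NF-Y motif. Birc3, which encodes the ubiquitin ligase cIAP2 of the tumour necrosis factor pathway, had one of 332 bp in intron 1 at chr9:7871570-7871901, 957 bp from the TSS.

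The remaining lists had 1 gene each. Rara, the gene of retinoic acid receptor alpha, was 1 of 64 genes of myeloid transcription factors. Its gain DAR of 201 bp at chr11:98833003-98833203 was 2465 bp from the listed TSS and covered the TSS of another protein-coding Rara transcript. Il6st, which encodes the shared interleukin 6 receptor subunit gp130, was 1 of 48 genes of cytokines, chemokines and their receptors, with a gain DAR of 150 bp at chr13:112601031-112601180, 256 bp from the listed TSS and 427 bp from the canonical one. Chd1, a nucleosome remodeler gene, was 1 of 62 genes of chromatin regulators and had a loss DAR of 150 bp at chr17:15925828-15925977, 548 bp from the TSS, which overlaps an exon of another transcript. The Chd1 DAR had the highest GC content of the 10, at 72.0%.

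The 366 start-proximal DARs had 363 nearest genes, of which 80 also had another DAR. DARs of both directions were present at 42 of these and of 1 direction at 38, and among the 65 genes with exactly 2 DARs the directions differed at 29. A DAR that covered the TSS was present at 7 of the genes, and a promoter DAR upstream at 14. These counts have no counterpart over all genes with DARs here, so they do not set these genes apart. Each of the 3 genes with 2 start-proximal DARs had a gain and a loss DAR. At Smyd2, which encodes a lysine methyltransferase, the gain DAR at chr1:189654010-189654203 was 247 bp from the TSS and the loss DAR at chr1:189653669-189653830 was 620 bp from it, so that 179 bp lay between them in intron 1. The gain sequence held 4 motifs and the loss sequence 2, and both held a GC box. At the snoRNA gene Gm24064 the gain DAR was 1002 bp and the loss DAR 538 bp away from the TSS, with 287 bp between them. At Lrrfip2, whose product takes part in Toll-like receptor signalling, the gain DAR was 244 bp and the loss DAR 2810 bp from the TSS of their listed transcripts, and the gain DAR covered another annotated protein-coding TSS.

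The nearest other DAR was within 5 kb for 21 of the start-proximal DARs, and had the same direction for 3 (14.3%, 4.98% to 34.6%) and the opposite for 18. Pairs of start-proximal DARs, as at Smyd2 and Gm24064, were counted from both sides, which the interval does not allow for. Over all DARs with another within 5 kb, 59 of 169 (34.9%) had a neighbour of the same direction. Within 50 kb the directions were near balance, the same for 50 of 110 start-proximal DARs (45.5%) and for 47.6% of all DARs. The tendency over all DARs was known when these counts were made, so they are no independent support. At Aldoa, the gene of a glycolytic aldolase, the gain DAR lay 228 bp from the listed TSS, in an intron of Tlcd3b and over another annotated protein-coding TSS, and 263 bp from a loss DAR that covered the listed TSS of its own nearest transcript. Stk35, a kinase gene, showed the reverse order, with a loss DAR at 581 bp and a gain DAR at the TSS. Both DARs were loss DARs at Lrsam1 (592 bp) and Trim26 (1975 bp), ubiquitin ligase genes with a second DAR at the TSS. At Iqgap2, a scaffold gene of the actin cytoskeleton, both were gain DARs, the start-proximal one at 1332 bp and a second at 3284 bp.

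The base composition of the start-proximal DARs lay between that of TSS DARs and that of distant intronic DARs, and near that of all DARs. Their mean GC content was 52.0% ± 7.23 (SD over 366 regions), against 45.4% ± 7.20 in flank windows of equal length that lay 1 kb away on both sides. The GC content was above that of the flanks in 283 of 366 (77.3%), beside 4653 of all 5650 DARs (82.4%). DARs that covered a TSS had 62.9% ± 8.43 and first-intron DARs beyond 3000 bp had 48.8% ± 5.31, so the SDs overlap. From 1 to 500 bp the mean was 56.0%, and in the last bin, 2501 to 3000 bp, it was 49.5%. CpG dinucleotides, which mark many promoters as CpG islands, numbered 7.65 per 100 bp at the TSS, 3.65 per 100 bp from 1 to 500 bp, 0.934 per 100 bp in the last bin and 1.01 per 100 bp in the distant first-intron DARs. Relative to the number that the C and G content gives, CpG was present at 0.276 in the start-proximal DARs, 0.280 in their flank windows and 0.313 in all DARs. The same ratio was 0.786 in TSS DARs and 0.177 in the distant first-intron DARs. All DARs had a mean GC content of 50.7% and 1.84 CpG per 100 bp, beside 1.85 per 100 bp in the start-proximal DARs.

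**Figure D4:**
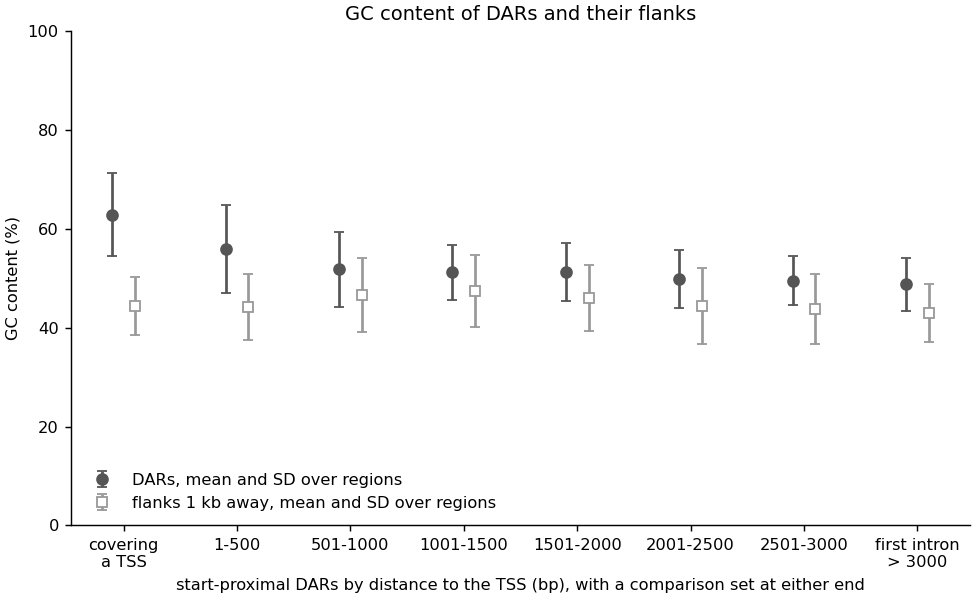
Mean GC content in percent with the SD over regions for start-proximal DARs by distance to the TSS (filled circles) and for flanking windows of the same length (open squares), with DARs covering a TSS at the left and first-intron DARs beyond 3000 bp at the right. The mean fell from 62.9% at the TSS to 56.0% from 1 to 500 bp and 49.5% from 2501 to 3000 bp, while flank means stayed between 43.0% and 47.5%.

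Gain and loss start-proximal DARs differed little in composition. Mean GC content was 52.7% ± 7.10 in the 207 gain and 51.2% ± 7.33 in the 159 loss DARs. From 1 to 500 bp, where gain DARs were in excess, it was 55.6% in 58 gain and 56.9% in 26 loss DARs, and CpG numbered 3.62 and 3.73 per 100 bp. No CpG at all was held by 35 gain DARs (16.9%, 12.4% to 22.6%) and 41 loss DARs (25.8%, 19.6% to 33.1%), with overlapping intervals. The 89 DARs past the end of a short transcript were poorer in CpG than the intronic ones, with 1.04 against 2.11 per 100 bp.

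Short motifs of transcription factors were searched on both strands. Those of factors known in monocytes and osteoclasts were the ETS and PU.1 core AGGAAGT, AP-1 TGANTCA, the NFAT core GGAAAA, RUNX TGTGGT, C/EBP TTGCNNAAT, NF-kB GGANTTTCC and the E-box of MITF and MXI1 CACGTG. Those of interferon signalling were the interferon response element GAAANNGAA and the STAT site TTCNNNGAA. The forkhead core was searched as ATAAACA or GTAAACA, beside the SRY and SOX core AACAAT, the ARID3A core ATTAAA and the ZNF354C core ATCCAC. Promoter motifs were the SP and KLF GC box GGGCGG, NRF1 CGCANGCGC, NF-Y CCAAT and the CTCF core CCANNAGGG. A stretch of letters could count for more than 1 motif, and a match is a description of the letters, not a bound site.

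ETS cores were more frequent in the start-proximal DARs than beside them, and AT-rich cores less frequent, as was also the case over all DARs. AGGAAGT was in 42 of 366 (11.5%, 8.60% to 15.1%) and in 4.37% (3.11% to 6.11%) of flank windows. It was in 10.0% of all DARs and in 5.23% of the flank windows of all DARs. The CTCF core was in 26 (7.10%, 4.89% to 10.2%), in 2.46% of flank windows and in 4.81% of all DARs. The GC box was in 34 (9.29%), in 4.64% of flank windows and in 9.35% of all DARs, where 59.8% of TSS DARs held it. In the other direction, the ARID3A core was in 23 (6.28%) against 132 of 732 flank windows, the NFAT core in 41 (11.2%) against 18.9% and the STAT site in 11 (3.01%) against 6.69%. All DARs held these 3 at 6.92%, 11.6% and 4.64%. The intervals of the STAT site overlapped. GC content was 45.4% in the flanks and 52.0% in the DARs, and its part in these differences was not tested.

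**Figure D5:**
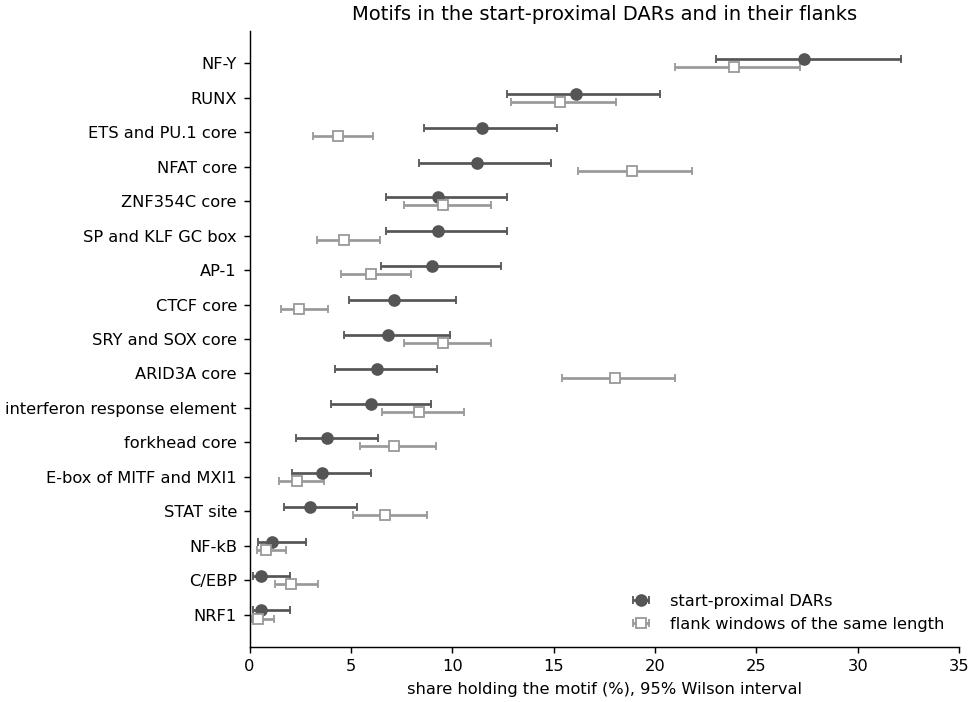
Share in percent of 366 start-proximal DARs (filled circles) and of 732 flank windows of the same length (open squares) that held each of 17 motifs, with 95% Wilson intervals. Intervals are apart and higher in the DARs for the ETS and PU.1 core, the GC box and the CTCF core, and apart and lower for the NFAT and ARID3A cores.

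The forkhead core, the sequence bound by FOXP1 and its relatives, was rare. It was in 14 of the 366 (3.83%, 2.29% to 6.32%), in 5.03% of all DARs and in 7.10% (5.46% to 9.20%) of flank windows. The 9 gain DARs with it included those of Or7a37, Sfi1, Snord3b3, Gm46367, Gm27025, Gm17949, Gm25099 and Ulk1, the last a kinase gene of autophagy. The 5 loss DARs were those of 1700007P06Rik, Ston2, Gm19901, Col11a1 and Gm43893. As shares these were 4.35% (2.30% to 8.06%) of gain and 3.14% (1.35% to 7.15%) of loss DARs. The spelling GTAAACA alone was in 6 (1.64%), beside 2.14% of all DARs.

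No motif separated gain from loss start-proximal DARs, as all 17 pairs of intervals overlapped. AP-1 was in 18 gain (8.70%) and 15 loss DARs (9.43%), the ETS and PU.1 core in 24 (11.6%) and 18 (11.3%), and the NFAT core in 24 (11.6%) and 17 (10.7%). CTCF cores were in 18 gain (8.70%, 5.57% to 13.3%) and 8 loss DARs (5.03%, 2.57% to 9.61%). The interferon response element was in 13 (6.28%) and 9 (5.66%), and the E-box of MITF and MXI1 in 9 (4.35%) and 4 (2.52%).

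Most start-proximal DARs held 1 motif or none. The median was 1 of the 17, as over all DARs, and 91 (24.9%) held none, beside 24.7% of all DARs. At least 4 motifs were held by 16 (4.37%), 10 of them gain and 6 loss, beside 4.50% of all DARs. The gain DARs with most were those of Rara and Gm22542 with 6 each and Gm45498 with 5. Nav1 and Smyd2 were the first by position of the gain DARs that tied at 4. Nav1, which encodes a microtubule-associated protein, held AP-1, ETS and PU.1, NFAT and RUNX letters within 207 bp, 417 bp from an internal TSS and 221092 bp from the canonical one. The loss DARs with most were that of ENSMUSG00000100502 with 6, and then 5 that tied at 4, among them those of Gm37125, Ston2, Gm2629 and Or13a20. In the ENSMUSG00000100502 DAR, the 254 bp held AP-1, ETS and PU.1, NF-kB, STAT, E-box and GC box letters, and a gain DAR lay 1363 bp away.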

How the data were processed

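ATAC-seq libraries of 2 groups, MR + vector and MR + iBRD9, were made from 5000 cells each. According to the methods and the submitters' processing notes, the authors trimmed reads with cutadapt 1.9.1, aligned them to GRCm39 with Bowtie2 2.2.6, removed duplicates and sampled both libraries to a common depth with Picard 1.126, and called peaks with MACS3 on whole fragments. Peaks of both libraries were merged, and a DAR was a region whose log2 fold change was 0.5 or more in size. Such sampling brings the mapped reads of both libraries to about the same number, but not their share in peaks, and whole fragments make Tn5 cut-site shifts small beside DAR widths. The authors deposited 3 tables of DARs (all, gain and loss), with the width and the distance to the TSS in bp, positions and annotation. They hold no signal or count, so the depth behind a DAR is unknown. The annotation tool is not given in the sources used here.

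Start-proximal DARs were selected by distance (1 to 3000 bp) and class and counted in the gain and loss tables. Chromosomes 20 and 21 of the tables are X and Y, as their transcripts show. Sequence was read from GRCm39, and genes, exons and canonical transcripts from GENCODE M39, which holds 358 of the 366 listed transcripts and gives the same TSS for 286. Distances run from the TSS to the near edge of the DAR, as found for 583 of 583 DARs in that range. Symbols were found for 356 of 366 genes. Motif and composition counts were made in Python 3.11.15 with pandas 2.3.3, scipy 1.17.1 and pysam 0.24.0, and these functions were tested on simulated sequences. Flank windows had the width of the DAR and lay 1 kb from either edge.

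The region classes, the 11 gene lists (489 genes), the motifs and the comparisons were chosen with earlier results of these data known. Genes named are those of a list, those with 2 or more start-proximal DARs, the 5 widest of each direction, the 3 at each distance limit, the 5 nearest of each direction in the classes outside introns, and up to 5 of each direction with 4 or more motifs. Sequences were left out where a DAR exceeded 300 bp or overlapped an annotated untranslated region. A few genes within the rule are not reported here. Other genes are named as chosen later. The authors' distance to the TSS and width are lengths, so no log scale, normalization or test applied. Alternatives changed the distance limit, the classes, the widths, the kind of nearest gene, the TSS, the window and the motif.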

Additional observations from a re-analysis of the deposited data

How the results depend on the processing

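No paired analysis was possible because there is a single library for vector and a single one for iBRD9. The gain share of 56.6% stayed within its interval under 12 alternatives, 3 of them added after the data were seen, between 55.7% and 58.1%, and the median distance under its 3. Counting each nearest gene once per direction kept all 366 DARs and taking autosomes only kept 365, so neither could move the gain share by much. Most of the other alternatives took a part of the same DARs. With an upper limit of 1000, 2000 or 5000 bp, mean GC content was 54.1%, 52.9% or 51.1%, and with protein-coding genes only 52.9%. The first-intron share was 55.9% at 1000 bp and 39.8% at 5000 bp, 60.6% of intronic DARs and 59.2% with protein-coding genes only. The forkhead core share was 8.47% with the shorter TAAACA, which could not lower it. It was 1.64% with GTAAACA alone, which drops ATAAACA and could not raise it. The gain share from 1 to 500 bp (69.0%) fell to 55.9% with an edge at 1000 bp, and was between 61.3% and 70.9% under 7 other alternatives, all 8 added after the data were seen. The tables list changed regions only, so unchanged accessible sequence next to a TSS was not analysed here, and neither strength nor reproducibility of a DAR could be measured.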

Other observations

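The start-proximal DARs were spread over all 19 autosomes, from 7 on chromosome 19 to 34 on chromosome 1, where 22 were gain and 12 loss. Chromosome X held 1, a gain DAR 226 bp from the TSS of Vbp1, which encodes a subunit of the prefoldin chaperone, and chromosome Y none. The X chromosome held 24 DARs of any kind. MicroRNA genes were nearest to 4 start-proximal DARs, the gain DARs of Mir5099 and Mir1896 and the loss DARs of Mir7223 and Mir3470a, and olfactory receptor genes or pseudogenes to 5, the gain DARs of Or10j28-ps1, Or7a37 and Or8b1b and the loss DARs of Or6o1-ps1 and Or13a20. These were chosen for mention after they were seen.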
